A study of Rattus norvegicus with 18 samples.

Results

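Dlk1 and 8 other imprinted growth genes were examined in the lungs of rats that had received multi-walled carbon nanotubes (MWCNT) and of time-matched control rats. The list named 10 genes, Dlk1, Igf2, Igf2r, Cdkn1c, Peg3, Plagl1, Grb10, Mest, Ndn, and Gnas, and a gene was taken when the gene name of the deposited tables equalled its symbol. By this rule 9 genes were found among 22081. Gnas had no row under its plain symbol. The list was chosen by the measured fall of Dlk1 in MWCNT-treated lungs, with its levels in control lungs also known and the other genes added for their shared mode of expression. Hence the differences between MWCNT-treated and control rats are given below as a description. Where members are counted by a criterion in these differences, the count stands beside the share of all genes, and nothing is read from it.

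RNA-seq was performed on lungs of 18 male F344 rats, which formed 6 groups of 3 by treatment (control or MWCNT) and time point (Years 0.5, 1, and 2). Per the methods of the study, treated rats were instilled intratracheally with MWNT-7, a long and rigid type of carbon nanotube, at 0.5 mg/kg every 4 weeks from 9 weeks of age, and control rats received the saline vehicle with a surfactant. RNA came from pieces of the accessory lobe, and tissue with tumors was left out. Every rat was a separate animal, and each group is thus 3 lungs of one inbred strain and one sex, each seen through a small piece of a single lobe. Bulk RNA was measured, so fewer cells of a type and less RNA per cell cannot be told apart, and gene-level counts do not separate the copies inherited from the mother and the father.

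Imprinted genes are transcribed mainly or only from the copy of one parent, and the choice is carried by DNA methylation of CpG-rich control regions set in the germ line. Many of them act on growth before birth. In general, genes expressed from the paternal copy, such as Igf2, Dlk1, Peg3, and Plagl1, favor growth, whereas genes expressed from the maternal copy, such as Igf2r, Cdkn1c, and Grb10 in most tissues, restrain it. Most of these genes are high in the fetus and fall after birth, and Dlk1 is known in the lung from the developing organ.

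The total count per rat ranged from 13297643 to 21130757, with medians of 14721398 in the control rats and 15804905 in the MWCNT-treated rats. TPM is the level of a gene per length, as a share of all transcripts of a lung. Log2 fold changes were fitted to the counts with edgeR under TMM scaling, which takes most genes as unchanged, so that they need not equal ratios of TPM. A differentially expressed gene (DEG) is one that passes an FDR (false discovery rate) of 0.05 and changes by more than 1 on the log2 scale in either direction. Defining markers of lung cells were present in every group: summed TPM of the 5 markers of type 2 epithelium ranged from 26937 to 35483 in control rats and from 50036 to 59464 in MWCNT-treated rats. Summed macrophage markers (6 of 6 found) ranged from 24195 to 30328 and from 54909 to 63931, respectively. Summed endothelial markers (4 of 5 found) lay between 1795 and 2320 in control rats and between 539 and 1238 in MWCNT-treated rats, and those of type 1 epithelium (5 of 5) between 4335 and 5120 and between 2314 and 3357. Summed club cell markers (3 of 3) were 18053 to 32795 in control rats and 10464 to 15509 in treated rats, those of neuroendocrine cells (7 of 7) 3.35 to 7.66 and 9.20 to 64.4, and those of adipocytes (5 of 5) 22.5 to 41.3 and 42.3 to 103. None of these 7 sums overlapped between control and MWCNT-treated rats. Of the adipocyte markers, only Cfd was tested at each year, and it was higher by the FDR each time. Adipoq was at log2 -0.74 ± 0.60 at Year 0.5 (FDR = 0.365, edgeR). Plin1, Lep, and Retn had too few counts to be tested. At Years 0.5 and 1, Retn was lower in all treated than in all control rats. Heart muscle markers overlapped in sum (73.5 to 693 and 16.1 to 209). By the DEG criterion 8 of 9 were lower at Year 0.5, 2 of 9 at Year 1, and 1 of 7 at Year 2. Of all genes, 3.03%, 4.09%, and 8.22% were lower by it. Sums of fibroblast markers (5 of 6 found) overlapped too (631 to 927 and 534 to 740). So did those of mesothelium (46.3 to 163 and 83.1 to 139) and of chromaffin cells (0.55 to 1.61 and 0.333 to 1.66). By the FDR alone, 2, 0, and 2 of the 5 fibroblast markers were higher and 3, 2, and 3 lower at Years 0.5, 1, and 2. Of all genes, 38.8%, 41.2%, and 49.2% passed the FDR in either direction. The part of these cells in the values below was not tested.

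The window before the transcription start is shown for 4 of the genes, 3 that were lower and 1 that was higher in MWCNT-treated lungs. Imprints are carried by CpG methylation of control regions, and whether these windows lie in such regions was not examined. Each line holds the 250 bases upstream of a start in the RefSeq annotation of the GRCr8 assembly, 5′ to 3′ on the strand of the gene, with every CpG in capitals. The windows are chr6:134192347-134192596 (plus strand) for Dlk1, chr1:207250476-207250725 (minus strand) for one of the 2 listed starts of Igf2, chr1:9297214-9297463 (plus strand) for Plagl1, and chr1:50526628-50526877 (plus strand) for Igf2r.
Dlk1: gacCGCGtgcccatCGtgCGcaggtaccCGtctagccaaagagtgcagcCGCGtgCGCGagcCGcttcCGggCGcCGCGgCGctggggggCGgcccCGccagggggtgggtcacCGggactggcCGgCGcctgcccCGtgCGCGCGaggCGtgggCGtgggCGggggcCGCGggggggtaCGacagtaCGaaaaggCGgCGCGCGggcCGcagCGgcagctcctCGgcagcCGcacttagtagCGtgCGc
Igf2: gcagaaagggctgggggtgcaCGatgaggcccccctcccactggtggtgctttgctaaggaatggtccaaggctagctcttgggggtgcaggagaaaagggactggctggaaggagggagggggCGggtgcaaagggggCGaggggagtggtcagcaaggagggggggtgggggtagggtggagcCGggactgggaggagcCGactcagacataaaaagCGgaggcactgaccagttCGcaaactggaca
Plagl1: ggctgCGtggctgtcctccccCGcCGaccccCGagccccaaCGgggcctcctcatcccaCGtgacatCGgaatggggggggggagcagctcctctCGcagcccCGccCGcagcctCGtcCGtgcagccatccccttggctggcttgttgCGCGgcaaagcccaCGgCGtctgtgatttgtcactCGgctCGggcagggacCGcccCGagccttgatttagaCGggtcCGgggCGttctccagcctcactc
Igf2r: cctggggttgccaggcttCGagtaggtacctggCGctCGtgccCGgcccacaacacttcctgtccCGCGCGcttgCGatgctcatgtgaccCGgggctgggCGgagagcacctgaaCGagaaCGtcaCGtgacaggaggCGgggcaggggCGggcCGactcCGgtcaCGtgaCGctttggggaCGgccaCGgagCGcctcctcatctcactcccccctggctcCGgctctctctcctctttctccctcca

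The Dlk1 window held 41 CpG sites, against a median of 5 over 33469 windows of this length, and 0.98% of windows held as many. Igf2 held 7 at the start shown and 15 at the other, whereas Plagl1 and Igf2r held 23 each, a number reached by 12.3% of windows. Among the others, Grb10 held 38, Mest 15, Peg3 11, and Ndn 10, and Cdkn1c had no entry. Dlk1 thus had the densest of these windows. A relation between CpG density and level was not tested. The palindrome GGGGCCCC, which lies within the sequence known for PLAGL1 binding, was searched on both strands. It occurred once in the Peg3 window and in none of the windows of the other 7 genes, and 0.753% of all windows held it. Methylation was not measured here.

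Dlk1 (ENSRNOG00000019584) encodes a membrane protein with EGF repeats, related to Notch ligands, that holds back the differentiation of fat cell precursors. Its row spans chromosome 6, positions 133552821 to 133583751 on the plus strand of Rnor_6.0. The TPM of Dlk1 in control rats was 52.1, 78.7, and 50.4 at Year 0.5, 116, 98.3, and 104 at Year 1, and 269, 232, and 97.1 at Year 2. In MWCNT-treated rats it was 1.01, 1.08, and 2.60 at Year 0.5, 9.65, 2.86, and 8.86 at Year 1, and 2.20, 13.0, and 10.5 at Year 2. The lowest control rat was at 50.4 and the highest treated rat at 13.0, so the groups did not overlap at any time point or across them. In control lungs the mean TPM of Dlk1 lay above that of 94.2% of genes. The fold was 35.6-fold lower at Year 0.5, 12.9-fold lower at Year 1, and 20.0-fold lower at Year 2, with log2 fold changes of -5.15 ± 0.31, -3.69 ± 0.30, and -4.32 ± 0.52 (SE, n = 3 rats per group). Of the 6 groups, control rats at Year 2 had the widest range in TPM as a difference. As a ratio of highest to lowest rat, treated rats at Year 2 had the widest, at 5.89, against 2.77 in those control rats. The control rat at 97.1 was the lowest of the 3 in summed endothelial (1795) and type 1 epithelial (4335) markers. It was the highest in summed fibroblast (732) and macrophage (30328) markers.

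**Figure D1:**
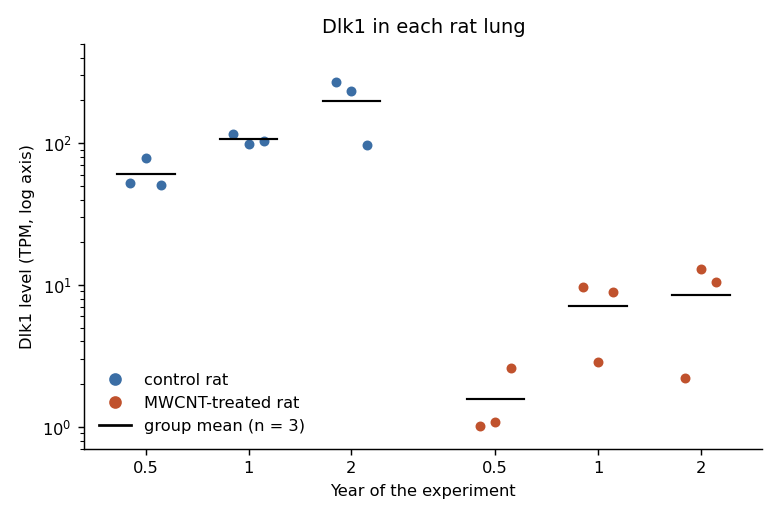
TPM of Dlk1 (log axis) in each of 18 rat lungs by year, with control rats in blue and MWCNT-treated rats in orange and a horizontal line at each group mean (n = 3). All control rats lie at or above 50.4 and all treated rats at or below 13.0, and the control means rise from 60.4 to 199.

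Igf2 (insulin-like growth factor 2, chromosome 1, 215828102 to 215846911, minus strand) is a fetal growth factor. Its TPM was low in every lung. Control rats had 4.05, 4.09, and 4.77 at Year 0.5, 4.48, 3.76, and 3.60 at Year 1, and 3.23, 3.02, and 3.45 at Year 2. MWCNT-treated rats had 1.35, 1.18, and 1.57, then 1.33, 1.35, and 1.97, then 1.17, 1.53, and 1.23. All 9 treated lungs were below all 9 control lungs, and the log2 fold changes were -1.51 ± 0.16, -1.11 ± 0.19, and -1.08 ± 0.17 at Years 0.5, 1, and 2.

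Igf2r (chromosome 1, 48176106 to 48264477, plus strand) encodes the receptor that takes up IGF2 and carries it to lysosomes, and that also sorts lysosomal enzymes. It was the single gene of the list that was higher in treated lungs at all 3 time points. Its TPM was 47.5, 50.8, and 57.4 at Year 0.5, 55.3, 60.1, and 57.2 at Year 1, and 46.9, 50.4, and 53.8 at Year 2 in control rats. In MWCNT-treated rats it was 89.9, 85.9, and 83.1 at Year 0.5, 82.9, 56.7, and 81.8 at Year 1, and 89.7, 84.6, and 85.0 at Year 2. The groups were apart in TPM at Years 0.5 and 2 but overlapped at Year 1 through treated rat 2. The log2 fold changes of Igf2r were 0.88 ± 0.08, 0.59 ± 0.11, and 1.00 ± 0.07, the last, at 0.997, just below the limit of the DEG criterion. The ratio of Igf2r to Igf2 TPM was 12.1 ± 0.35, 14.7 ± 2.1, and 15.6 ± 1.1 (SD, n = 3) in control rats and 64.1 ± 10.2, 48.5 ± 11.8, and 67.0 ± 11.02 in treated rats. The highest control ratio was 16.7 and the lowest treated ratio 41.5.

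Grb10 (chromosome 14, 92021851 to 92117923, minus strand) encodes an adaptor that dampens signaling from the insulin and IGF1 receptors. Over all years its TPM was between 27.0 and 37.5 in control lungs and between 20.1 and 31.4 in treated lungs, and these overlapped. Within a year the groups overlapped at Year 0.5 only. At Year 1 control rats had 29.0 to 37.5 and treated rats 20.1 to 25.7. At Year 2 control rats had 27.0 to 32.0 and treated rats 21.8 to 23.7. The FDR of Grb10 was 0.0279 at Year 1 and 0.0586 at Year 2 (edgeR). Log2 fold changes were small, at 0.04 ± 0.08, -0.34 ± 0.10, and -0.19 ± 0.07. At Year 0.5 the sign of the Grb10 difference depended on scaling, with -0.0627 when counts were scaled by library size alone, and no direction is given.

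Cdkn1c (chromosome 1, 216661080 to 216663721, minus strand) encodes p57, an inhibitor of cyclin-dependent kinases. Its TPM was 44.9, 39.4, and 43.4 at Year 0.5, 43.3, 56.0, and 51.0 at Year 1, and 54.4, 37.4, and 30.1 at Year 2 in control rats. Treated rats had 21.9, 18.5, and 26.2, then 22.3, 17.9, and 28.2, then 15.6, 14.2, and 19.8. No treated rat reached the lowest control rat, and the log2 fold changes of Cdkn1c were -0.80 ± 0.12, -0.90 ± 0.14, and -1.09 ± 0.23. At Year 2 the difference was -0.79 without control rat 1, the rat with the highest level, and -0.98 without treated rat 2.

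Plagl1 (chromosome 1, 7252349 to 7259035, plus strand) encodes ZAC1, a zinc finger transcription factor known to regulate other imprinted genes. Control rats had 9.56, 9.34, and 8.94 TPM at Year 0.5, 8.24, 11.4, and 10.7 at Year 1, and 8.92, 8.16, and 8.33 at Year 2. Treated rats had 5.58, 5.35, and 6.42 at Year 0.5, 5.62, 2.39, and 4.45 at Year 1, and 1.69, 1.96, and 2.79 at Year 2. The control level was nearly flat while the treated level was lowest at Year 2, where all 3 rats lay below all 3 treated rats of Year 0.5. The log2 fold changes of Plagl1 were -0.54 ± 0.10, -1.07 ± 0.24, and -1.77 ± 0.18. At Year 1 the value was -0.81 without treated rat 2 and -0.98 without control rat 2.

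Peg3 (chromosome 1, 70222964 to 70237443, plus strand) encodes a zinc finger protein expressed from the paternal copy. Its TPM was 10.6 to 13.2 in the 9 control lungs and 3.77 to 7.08 in the 9 treated lungs, with no overlap, and the log2 fold changes were -0.70 ± 0.10, -0.95 ± 0.14, and -0.75 ± 0.11. The row of Apeg3 overlaps Peg3 on the opposite strand. Whether counting used the strand is not given in the sources used here, so that reads of both genes may be mixed.

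Ndn (chromosome 1, 122981755 to 122983351, plus strand) encodes necdin, a MAGE family protein that restrains cell growth. In control rats its TPM was 12.9, 14.0, and 14.9 at Year 0.5, 11.4, 10.3, and 12.2 at Year 1, and 14.2, 11.9, and 9.90 at Year 2. Treated rats had 10.7, 8.78, and 10.1, then 11.5, 9.36, and 7.71, then 4.51, 6.32, and 5.78. The groups overlapped at Year 1 and were apart at Years 0.5 and 2, and the log2 fold changes of Ndn were -0.36 ± 0.14, -0.01 ± 0.17, and -0.90 ± 0.20.

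Mest (chromosome 4, 58053041 to 58063138, plus strand) encodes a protein of the hydrolase family that is high in the embryonic mesoderm. Its TPM was 0.293 to 1.76 in control rats and 0.222 to 1.504 in treated rats, from 2 to 13 counts, too few for the comparisons within a year. At this depth no difference in Mest was detectable. Gnas, which encodes the alpha subunit of a stimulatory G protein, was present under 2 suffixed names that overlap on chromosome 3. The more abundant of them, Gnas_2, ranged from 78.0 to 93.7 TPM in control rats and from 77.1 to 89.3 in treated rats.

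**Figure D2:**
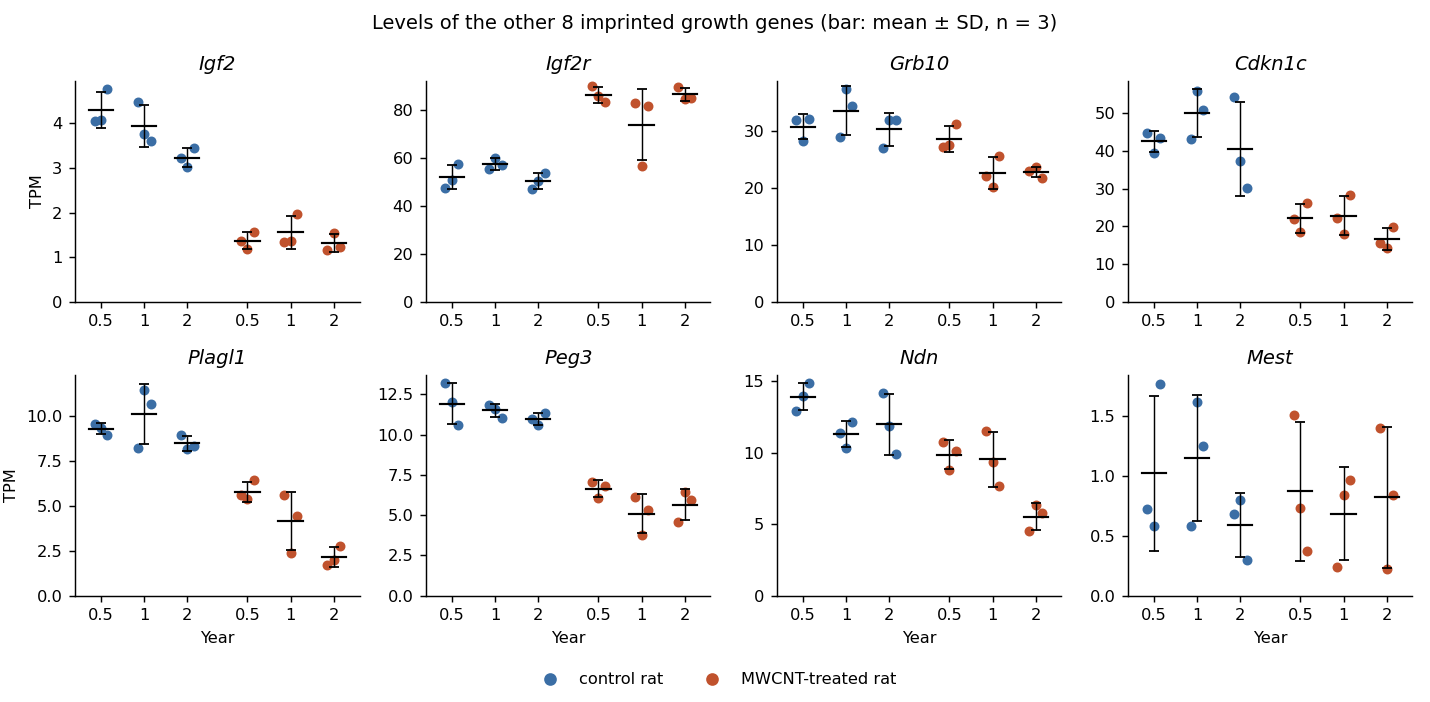
TPM of the other 8 genes in each rat by year, with control rats in blue, MWCNT-treated rats in orange, and bars for the mean ± SD (n = 3), every axis starting at 0. Treated rats are lower for Igf2, Cdkn1c, Plagl1, and Peg3 at all 3 time points and higher for Igf2r, the latter with 1 treated rat at 56.7 in Year 1.

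Of the 8 genes that passed the filter, 2 met the DEG criterion at Year 0.5 (Dlk1 and Igf2), where 9.1% of the genes tested did and 3.03% did so with lower levels in treated lungs. At Year 1, 3 met it (Plagl1 in addition), against 10.2% of genes tested (4.09% lower). At Year 2, 4 met it (Cdkn1c in addition), against 16.4% (8.22% lower). All of these were lower in treated lungs. The FDR alone was met by 6, 7, and 7 of the 8 genes and by 38.8%, 41.2%, and 49.2% of all genes, which, like the counts above, is no test of genes chosen by this contrast. On TMM-adjusted CPM (counts scaled to library size), the 3 treated rats did not overlap the 3 control rats for 7, 7, and 8 of the 8 genes, as held for 51.6%, 54.9%, and 59.9% of all genes. The median log2 fold change of the 8 genes was -0.62, -0.93, and -0.99, and that of all genes tested was -0.02, 0.00, and -0.01. Since the list was drawn with these differences in view, the counts describe the list only. Just inside the criterion at Year 2 was Igf2 at -1.08, and just outside it was Igf2r at 0.997. At Year 1, Plagl1 at -1.07 was just inside and Peg3 at -0.95 just outside.

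**Figure D3:**
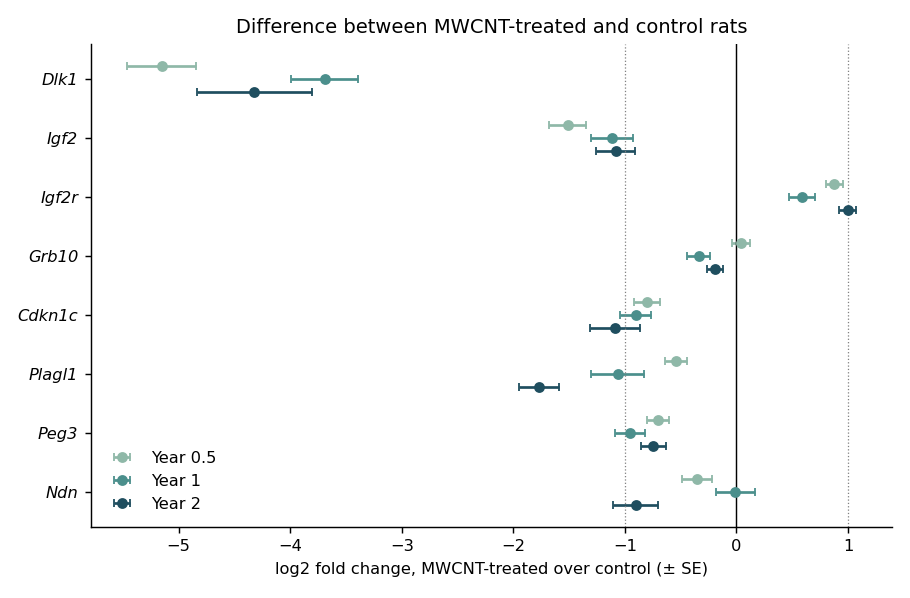
Log2 fold change of MWCNT-treated over control rats (± SE, n = 3 per group) for the 8 genes that passed the filter, at Years 0.5, 1, and 2, with dotted lines at -1 and 1. Dlk1 lies between -5.15 and -3.69, Igf2r is the gene to the right at all years, and Plagl1 moves from -0.54 to -1.77.

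Within the treated groups, single rats were low for several of the genes at once. At Year 0.5, treated rat 2 had the lowest TPM of its group for Igf2 (1.18), Cdkn1c (18.5), Peg3 (6.07), Plagl1 (5.35), and Ndn (8.78). Its Dlk1 (1.08) was not the lowest, which was that of treated rat 1 (1.01). Its endothelial (856) and type 1 epithelial (2792) sums were the lowest of the group. Its fibroblast (740), type 2 epithelial (57343), macrophage (59439), and neuroendocrine (36.5) sums were the highest. At Year 1, treated rat 2 had the lowest TPM of its group for Dlk1 (2.86), Igf2r (56.7), Cdkn1c (17.9), Peg3 (3.77), Plagl1 (2.39), and Grb10 (20.1). It also had the lowest sum of endothelial markers (802), of type 1 epithelial markers (2810), and of fibroblast markers (534) in its group. Its sums of type 2 epithelial (59464), macrophage (63931), and neuroendocrine (31.5) markers were the highest of the group. At Year 2, treated rat 1 was the lowest for Dlk1 (2.20), Igf2 (1.17), Peg3 (4.56), Plagl1 (1.69), and Ndn (4.51), and again for endothelial (539) and type 1 epithelial (2314) markers. Its fibroblast sum (617), however, was the highest of the group. Its type 2 epithelial (53223), macrophage (58776), and neuroendocrine (37.4) sums lay between those of the other rats. The part of cell composition in these values was not tested.

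Changes over time within one treatment were next compared, to ask whether the genes moved with age or duration. The control levels of Dlk1 had been known when the list was made, so they are given as a description. In control rats, Dlk1 was 3.34-fold higher at Year 2 than at Year 0.5 (log2 1.74 ± 0.40, SE), and all 3 rats of Year 2 lay above all 3 of Year 0.5. The log2 value of Dlk1 was between 1.43 and 1.64 without control rat 1 or 3 of Year 0.5 or control rat 1 or 2 of Year 2, and without any of these 4 rats it no longer met the DEG criterion, nor did it with limma on log2(TPM + 1). In all, 1 of the 9 genes, Dlk1, met the criterion, which 0.633% of all genes met. The other 8 genes had log2 differences between -0.75 (Mest, SE 0.73) and -0.02 (Grb10, SE 0.09), and the lowest FDR among them was 0.126, for Igf2 (-0.41 ± 0.16, edgeR quasi-likelihood test over 14843 genes).

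In MWCNT-treated rats, 2 of the 9 genes met the criterion, against 2.34% of all genes. The fall of Dlk1 and its control levels were known when the list was made. Its treated levels over time are thus a description too, and its FDR is no independent test. Dlk1 was 5.97-fold higher at Year 2 than at Year 0.5 (log2 2.58 ± 0.67, FDR = 0.0170, edgeR), although the lowest rat of Year 2 (2.20 TPM) lay below the highest of Year 0.5 (2.60 TPM). The FDR of Dlk1 was 0.0688 and 0.0634 without treated rat 1 or 2 of Year 0.5, and 0.0836 without treated rat 2 of Year 2. Plagl1 went the other way and fell by 1.34 ± 0.22 on the log2 scale (FDR = 0.000689), with no overlap between the years, and it met the criterion with each rat left out in turn. Ndn fell by 0.74 ± 0.18 with an FDR of 0.00955, below the limit on the fold change. The log2 differences of Igf2 (0.03 ± 0.17), Igf2r (0.09 ± 0.10), Cdkn1c (-0.33 ± 0.20), Peg3 (-0.15 ± 0.13), Grb10 (-0.24 ± 0.09), and Mest (-0.01 ± 0.67) did not pass the FDR threshold. Type 1 epithelial markers were also lower at Year 2 in treated rats, with 3 of 5 passing an FDR of 0.05, and so were all 4 endothelial markers, Cdh5 (-0.62), Kdr (-0.996), Tek (-0.82), and Cldn5 (-0.62). Among all genes, 2006 of 14843 passed the FDR alone in either direction. The part of these cells in the fall of Plagl1 was not tested.

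**Figure D4:**
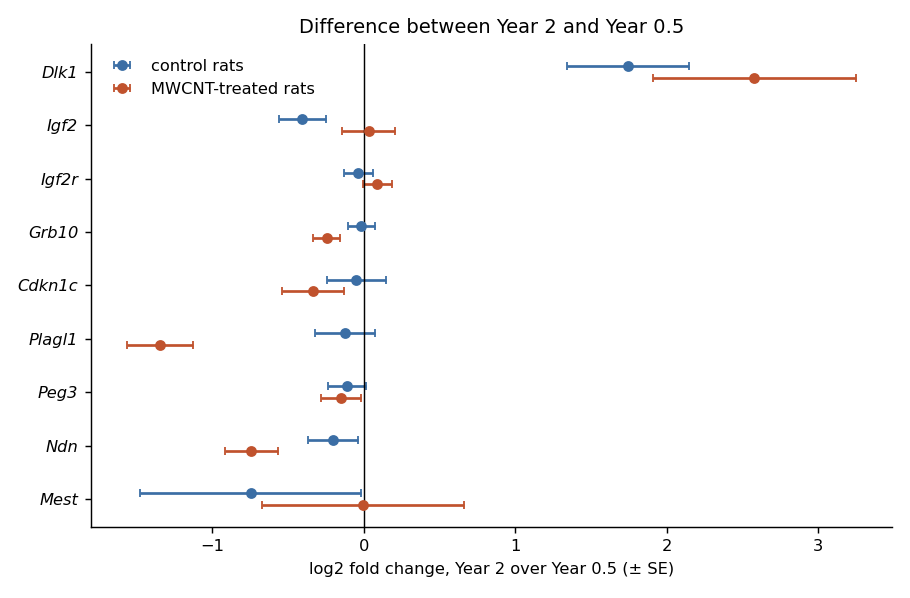
Log2 fold change of Year 2 over Year 0.5 (± SE, n = 3 rats per group) for the 9 genes in control rats (blue) and MWCNT-treated rats (orange). Dlk1 lies to the right in both, at 1.74 and 2.58, and Plagl1 is apart between the treatments, at -0.12 and -1.34.

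The difference of the treatment effect between Years 2 and 0.5 was tested as an interaction in the same model. None of the 9 genes passed an FDR of 0.05 with edgeR, where 1.31% of all genes did, while Plagl1 and Ndn had an unadjusted p below 0.05. Plagl1 passed in 6 of 8 alternative settings, namely DESeq2 and 5 fits with edgeR under other filters, scaling, or sets of rats, but not with limma or the replicate block. Plagl1 was near the threshold, with a difference of -1.22 ± 0.29 and an FDR of 0.0510. The FDR of Plagl1 over alternative settings ranged from 0.00403 with DESeq2 to 0.0985, and with single rats left out from 0.0312 (without treated rat 3 of Year 2) to 0.144 (without treated rat 1 of Year 2). For Dlk1 the difference was 0.84 ± 0.81 (FDR = 0.703), so that a change in its treatment effect over time could not be shown with 3 rats per group.

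Genes with which the listed proteins act were then read from the same fits. Levels of Igf1, the growth factor that binds the type 1 receptor, were 27.4 to 35.0 TPM at Year 0.5, 30.8 to 33.9 at Year 1, and 20.1 to 25.5 at Year 2 in control rats. In treated rats Igf1 was 80.1 to 93.3, 64.7 to 81.4, and 62.7 to 74.0 TPM, without overlap. Igf1 thus rose by log2 1.61 ± 0.10, 1.47 ± 0.11, and 1.87 ± 0.11 (FDR = 1.35e-05, 2.79e-05, and 2.80e-06), whereas Igf2 was lower in the same lungs. Of 14 genes of the IGF axis tested, 1 rose and 2 fell at Year 0.5, 1 rose and 1 fell at Year 1, and 2 rose and 3 fell at Year 2, where 9.1%, 10.2%, and 16.4% of all genes were called in either direction. Igfbp3, a binding protein of the circulating IGF complex, fell at each year by 1.39 ± 0.12, 1.55 ± 0.08, and 1.25 ± 0.20 on the log2 scale. Igfbp2 fell at Year 0.5 by 1.16 ± 0.21 (0.90 without treated rat 2), and Igfbp5 at Year 2 by 1.17 ± 0.17. Also at Year 2, Pappa2, a protease of binding proteins, fell by 1.13 ± 0.31 (0.84 without treated rat 1, 0.94 without control rat 3), and Igfbp4 rose by 1.04 ± 0.09 (0.97 without control rat 3, 0.87 with library size alone, 0.99 with upper quartile factors). The median of the 14 genes was -0.38, -0.09, and 0.00.

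Dlk1 is related to the ligands of Notch receptors, through which neighboring cells signal. Of 16 genes of Notch receptors, ligands, and targets tested, 3 fell at Year 0.5, 3 at Year 1, and 6 at Year 2, where 3.03%, 4.09%, and 8.22% of all genes fell, and none rose by the criterion. The FDR alone was met by 3, 2, and 4 of these 16 genes with higher levels and by 10, 10, and 9 with lower levels. Of all genes, 38.8%, 41.2%, and 49.2% met it in either direction. The median log2 fold change of the 16 genes was -0.44, -0.56, and -0.48. Dll4, a ligand of vascular endothelium, had 80.8 to 166 TPM in control rats and 28.7 to 53.8 in treated rats at Year 0.5, and 96.7 to 139 and 16.9 to 24.0, respectively, at Year 2. Its log2 fold change was -1.53 ± 0.28 at Year 0.5 (FDR = 0.00290) and -2.26 ± 0.16 at Year 2 (FDR = 6.40e-06). The target and feedback gene Nrarp changed by -1.48 ± 0.28 and -2.40 ± 0.19, and the target Hey2 by -1.32 ± 0.20 and -1.84 ± 0.17. At Year 2, Hey1 (-1.42 ± 0.12), Dll1 (-1.35 ± 0.10), and Notch4 (-1.12 ± 0.13, or -0.99 without control rat 2) fell as well. At Year 1, Nrarp (-1.07), Dll4 (-1.11), and Dll1 (-1.001) met the criterion. Without control rat 1 they were at -0.63, -0.79, and -0.85, and without treated rat 2 at -0.88, -0.88, and -0.86, all under the limit. Without treated rat 3 Nrarp had an FDR of 0.0602 (edgeR). Of the 4 endothelial markers tested, 2, 1, and 4 fell at the 3 time points, and their part in the Notch values was not tested.

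DLK1 is best known as a brake on the making of fat cells. Of the genes of adipogenesis tested, 1 of 9 rose at Year 0.5, 2 of 8 at Year 1, and 5 of 8 at Year 2, where 9.1%, 10.2%, and 16.4% of all genes were called in either direction. None fell by the criterion, but Sox9 passed the FDR in the lower direction at Years 0.5 (-0.89 ± 0.24) and 1 (-0.83 ± 0.23). Fabp4, a fatty acid carrier of adipocytes and also of macrophages and endothelium, was 30.5 to 42.4 TPM in control rats and 239 to 315 in treated rats at Year 0.5, and 16.9 to 29.0 and 639 to 698 at Year 2. Its log2 fold change was 3.08 ± 0.15, 3.88 ± 0.19, and 5.18 ± 0.15. Cfd (adipsin) rose by 1.37 ± 0.18 at Year 1 and 1.89 ± 0.17 at Year 2, and at Year 2 Lpl (1.60 ± 0.10), Cebpa (1.22 ± 0.08), and Pparg (1.15 ± 0.14, or 0.97 with library size alone) rose too. At Years 0.5 and 1, Lpl (0.72 and 0.74) and Cebpa (0.98 and 0.87) were higher by the FDR but under the fold limit. The same held for Cfd (0.92) and Pparg (0.82) at Year 0.5. Many of these genes are active in alveolar macrophages and type 2 cells, whose markers were higher: 4, 3, and 5 of 6 macrophage markers and 2, 2, and 3 of 5 type 2 markers rose at Years 0.5, 1, and 2. Of the adipocyte markers tested, 0 of 2 rose at Year 0.5, and at Years 1 and 2 1 of 1, Cfd. The part of these cells was not tested.

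Cdkn1c belongs to the inhibitors of the cell cycle. Of 14 genes of CDK inhibitors and the cell cycle, 7 rose at Year 0.5, 6 at Year 1, and 7 at Year 2, where 9.1%, 10.2%, and 16.4% of all genes were called in either direction. None fell by the criterion, whereas 2, 1, and 4 were lower by the FDR alone. The mitotic cyclin Ccnb1 rose by log2 1.69 ± 0.25, 1.67 ± 0.22, and 1.61 ± 0.25, and by the criterion Ccna2 (1.92 ± 0.30, 1.35 ± 0.26, and 1.09 ± 0.20), Ccne1 (1.87 ± 0.37, 1.56 ± 0.35, and 1.31 ± 0.36), and Cdk1 (1.67 ± 0.21, 1.35 ± 0.17, and 1.10 ± 0.17) rose at each year. Mki67, a proliferation marker, rose at Years 0.5 (1.59 ± 0.11) and 2 (1.02 ± 0.17). At Year 1 Mki67 was at 0.76 ± 0.11 (FDR = 0.000876, edgeR), under the fold limit. At Year 2, Mki67 was at 0.97, 0.88, and 0.90 without control rat 1, control rat 3, and treated rat 3. Ccna2 was at 0.93 without control rat 1 and Cdk1 at 0.98 without control rat 3, and with library size alone Mki67, Ccna2, and Cdk1 were at 0.85, 0.92, and 0.93. On the log2(TPM + 1) scale of limma, Mki67 (0.70), Ccna2 (0.73), and Cdk1 (0.82) at Year 2, Ccna2 at Year 1 (0.87), Cdk1 at Year 1 (0.99994), and Ccne1 at each year (0.98, 0.76, and 0.76) were under the limit as well. Ccnd1, the cyclin of the early cell cycle, was lower, at -0.33 ± 0.08, -0.21 ± 0.09, and -0.44 ± 0.11, and passed the FDR at Years 0.5 and 2. Inhibitors other than Cdkn1c went both ways. Cdkn2a had log2 fold changes of 1.40 ± 0.46, 1.95 ± 0.47, and 1.14 ± 0.51 and was not called at Year 2 (FDR = 0.0913, edgeR). At Year 0.5 the call of Cdkn2a was lost in 5 of 7 other settings (no filter, DESeq2, limma, the replicate block, and one model of all 18 rats) and without any one of 5 of the 6 rats. Named after their values were seen, Cdkn1a rose at Year 2 (1.17 ± 0.11), and Cdkn1b was lower by the FDR alone at each year (-0.58 ± 0.09, -0.42 ± 0.08, and -0.70 ± 0.06), as were Cdkn2b (-0.72 ± 0.11) and Cdkn2c (-0.43 ± 0.12) at Year 2. Ccnd1 was likewise named after its values were seen.

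Of 50 further imprinted genes listed, 41 were found and 30 tested, and 1, 2, and 3 rose and 0, 2, and 4 fell at Years 0.5, 1, and 2, with medians of -0.09, -0.08, and -0.20. Of all genes, 9.1%, 10.2%, and 16.4% were called in either direction, and nothing particular to imprinted genes is read from them. Rasgrf1, an exchange factor for RAS, rose from 0.0654 to 0.204 TPM in control rats to 0.387 to 1.39 in treated rats at Year 0.5 (log2 2.88 ± 0.66), and by 1.77 ± 0.41 and 3.13 ± 0.73 at Years 1 and 2. Its counts were low (1 to 13 in control rats). With single rats left out Rasgrf1 ranged from 2.11 (without treated rat 2) to 3.63 (without control rat 1) at Year 0.5, from 1.51 to 2.26 at Year 1, and from 2.63 to 5.36 (without control rat 3) at Year 2. On the log2(TPM + 1) scale the change of Rasgrf1 was 0.63, 0.43, and 0.97, under the limit. At Year 2, Sfmbt2 (1.98 ± 0.46) and Slc38a4 (1.21 ± 0.24) rose, but on the log2(TPM + 1) scale they were at 0.49 and 0.57, under the limit, and Sfmbt2 had 3 to 19 counts per rat. Dcn, which encodes the matrix proteoglycan decorin (-1.31 ± 0.26), and Osbpl5 (-1.27 ± 0.08) fell. Ddc fell at Year 1 (-1.25 ± 0.18). The remaining calls, named after their values were seen, were Tspan32 (-1.15) and Tfpi2 (1.09) at Year 1 and Cobl (-1.12) and Ppp1r9a (-1.01) at Year 2. H19 and Meg3, the noncoding genes of the Igf2 and Dlk1 domains, had no row under these names and were not analysed here.

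Among 10 genes that maintain or remove DNA methylation at imprints, Uhrf1, which brings DNMT1 to newly copied DNA and is also a gene of dividing cells, rose by 1.38 ± 0.18 at Year 0.5 and 1.15 ± 0.18 at Year 1. At Year 2 Uhrf1 was at 0.992 ± 0.20 (FDR = 0.00343, edgeR), just under the fold limit. Tet1, which oxidizes methylated cytosine, was at 0.643 to 0.867 TPM in control rats and 0.303 to 0.349 in treated rats at Year 0.5. Tet1 changed by -1.08 ± 0.27 at Year 0.5 and -1.54 ± 0.43 at Year 2. The Tet1 values were -0.996 and -0.99995 (FDR = 0.0589 and 0.0450, edgeR) without control rat 1 or treated rat 3 of Year 0.5. At Year 2 the FDR of Tet1 was 0.0536, 0.0528, 0.0622, and 0.0641 without control rat 2 or 3 or treated rat 2 or 3, with limma giving 0.0705. Tet1 was at -0.64 ± 0.32 at Year 1 (FDR = 0.142, edgeR). The other 8 genes did not meet the criterion at any year, and 9.1%, 10.2%, and 16.4% of all genes met it. By the FDR alone, 2, 2, and 3 of the 10 genes were higher and 2, 1, and 2 lower. Of all genes, 38.8%, 41.2%, and 49.2% met it in either direction. Dnmt1 (0.28, 0.30, and 0.40) was higher by the FDR at each year and Ctcf (-0.34, -0.28, and -0.22) lower. Both, and Dnmt3a (0.39, higher at Year 2), were named after their values were seen.

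**Figure D5:**
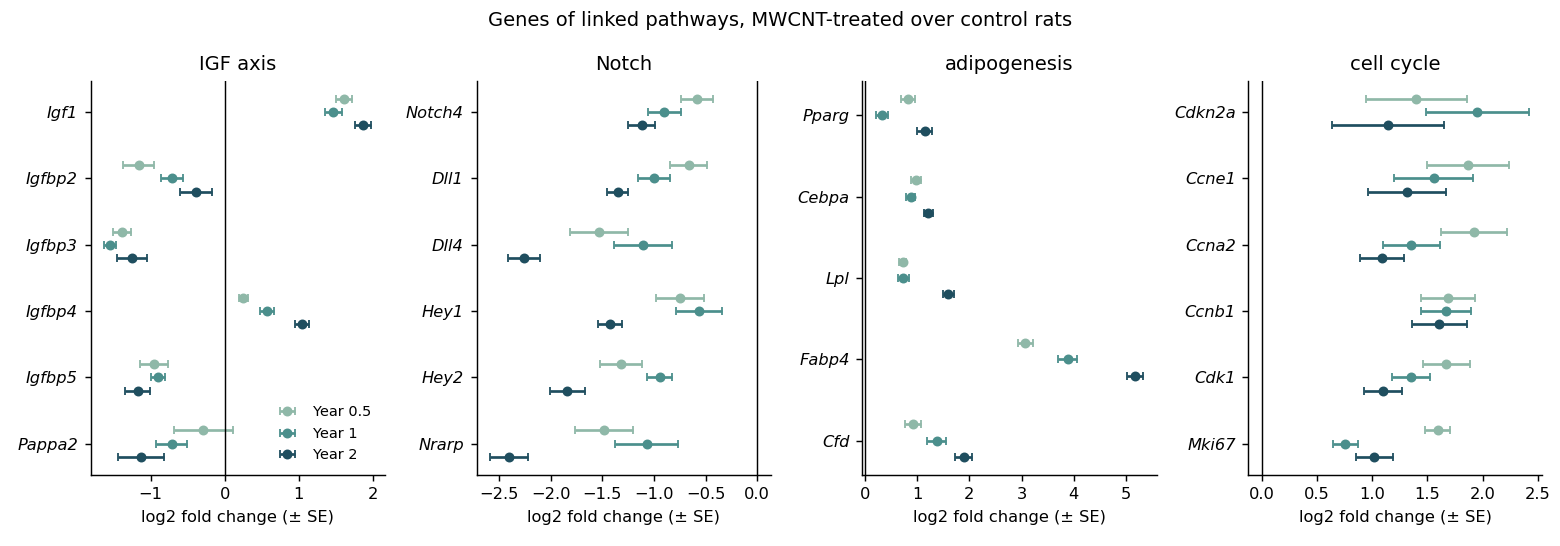
Log2 fold change of MWCNT-treated over control rats (± SE, n = 3 per group) for genes of the IGF axis, the Notch pathway, adipogenesis, and the cell cycle at Years 0.5, 1, and 2. Only genes that met the DEG criterion at 1 or more years are shown. Igf1 lies right of 0 and Igfbp3 left of it at every year, the 6 Notch genes shown lie left of 0, and Fabp4 reaches 5.18 at Year 2.

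To see which genes followed the levels of Dlk1, 13945 genes with a mean CPM of at least 1 were ranked by the Pearson correlation of log2 CPM with Dlk1 over 18 rats. The 10 most alike were LOC100911692 (r = 0.948), Kansl3 (0.948), Nrxn2 (0.946), Rnase4_1 (0.946), Hdac11 (0.945), Pla2g12a (0.943), Fam219b (0.941), Fxr2 (0.940), Zfp629 (0.937), and Dynll2 (0.934). These values reflect the gap between control and treated rats and are no measure within a group. When deviations from the 6 group means were used instead, the 10 most alike were Col6a4 (r = 0.923), Hsf4 (0.902), Dhx16 (0.901), Emid1 (0.898), Sez6 (0.893), Rita1 (0.891), Ushbp1 (0.889), Zfp213 (0.884), Dmpk (0.878), and Lcat (0.873). No gene was on both lists, and none of the other 8 imprinted growth genes was among them. Points of one library share its depth and its cell composition, and the order of these genes was not tested.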

How the data were processed

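RNA-seq of 18 rat lungs, 3 rats per treatment and year, was analysed. The authors mapped reads in CLC Genomics Workbench to Rnor_6.0 (rn6 in the submitters' processing notes) and deposited whole-number counts per gene and the TPM made from them. Strand use and the handling of multiply mapped reads are not given in the sources used here. The deposited RPKM and TMM-adjusted CPM, and columns with the authors' own fold changes and p-values, were not used. Total counts of 13297643 to 21130757 per rat set the precision, together with 3 rats per group.

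Counts were analysed with edgeR 4.0.16 in R 4.3.3 (filterByExpr, minimum count 10 and minimum total 15, TMM factors, quasi-likelihood test, Benjamini-Hochberg FDR over all genes tested). Treatment was compared within the 6 rats of a year, where 14315, 14345, and 14361 genes were tested, and time and the interaction in one model of 18 rats with 14843 genes. DEGs passed an FDR of 0.05 and a log2 fold change of 1 in either direction. Standard errors were derived from the F statistic. The same fits were first run on simulated data with known changes. P-values measure the spread between separate rats. Members, gene lists, and alternatives were chosen with earlier results of these data known.

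Named were all members, up to 6 genes per list (other imprinted genes, IGF axis, Notch, adipogenesis, CDK inhibitors and cell cycle, imprint maintenance) with the largest change among DEGs, and the 10 genes most like Dlk1 by each measure. Exceptions are marked. Promoter windows came from RefSeq on GRCr8, and 8 of the 9 genes had an entry. Alternatives were no filter, at least 10 counts in every rat, library size only, upper quartile factors, DESeq2 1.42.0, limma 3.58.1 on log2(TPM + 1), the FDR alone, the replicate number as a block, other sets of rats in the model, and each rat left out.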

Additional observations from a re-analysis of the deposited data

Results flagged for a closer look

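The difference of the treatment effect between Years 2 and 0.5 passed an FDR of 0.05 (edgeR interaction test) for 3 of the named genes. For Fabp4 the log2 fold change went from 3.08 at Year 0.5 to 5.18 at Year 2, a difference of 2.11 ± 0.27 (FDR = 0.00136). Lpl, the lipoprotein lipase, went from 0.72 to 1.60, a difference of 0.88 ± 0.13 (FDR = 0.00480). Igfbp4 went from 0.26 to 1.04, a difference of 0.80 ± 0.12 (FDR = 0.00636). In control rats the mean TPM of Fabp4 was 36.6 at Year 0.5 and 21.9 at Year 2, and that of Lpl was 316 and 233. In treated rats Fabp4 was 278 and 678 and Lpl 472 and 607. Summed macrophage markers in treated rats were 54909 to 59439 TPM at Year 0.5 and 58261 to 63260 at Year 2. By the FDR alone, 3 of the 6 markers were higher at Year 2 in treated rats and 0 lower. These were Cd68 (log2 0.60), Adgre1 (0.57), and Csf1r (0.25). Among all genes, 2006 of 14843 passed in either direction. The part of macrophages was not tested. Groups of 3 rats are too small for a test of single outlying rats.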

How the results depend on the processing

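The number of imprinted growth genes meeting the criterion was 2, 3, and 4 at Years 0.5, 1, and 2. It became 6, 7, and 7 with the FDR alone, and 5 at Year 1 with library size only, where Cdkn1c (-1.04) and Peg3 (-1.09) joined. Both also joined at Year 1 with limma (-1.12 and -1.06). At Year 2, Ndn joined with library size only (-1.07) and Igf2r in one model of all 18 rats (1.003), as Igf2r did in 3 of 6 fits with a rat left out. Scaling by library size alone shifted the median log2 fold change of all genes by -0.10, -0.13, and -0.17. With limma, Igf2 lost its call at Years 1 (-0.96) and 2 (-0.87). Leaving out each rat gave 2 to 2, 2 to 4, and 3 to 6 genes, the 6 at Year 2 without control rat 3, and 0 to 1, 1 to 2, and 0 to 1 for time in control rats, time in treated rats, and the interaction. Igf2 at Year 1 was -0.996 without control rat 1. For time in control rats the count was 0 with limma. The interaction count was 1, Plagl1, with no filter (FDR = 0.0446), at least 10 counts in every rat (0.0416), library size only (0.0460), upper quartile factors (0.0453), DESeq2 (0.00403), and only the rats compared (0.0200, all edgeR but DESeq2). The cause of these changes was not tested.

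Differences near 0 changed sign: Grb10 at Year 0.5 with library size only (-0.0627), upper quartile factors (-0.000831), and limma (-0.10), and in control rats over time with library size only (0.0265) and upper quartile factors (0.00458); Igf2r in control rats over time with library size only (0.00739); and Igf2 in treated rats over time with limma (-0.0350). Leaving out rats, Grb10 at Year 0.5 ranged from -0.0134 to 0.0800 and Ndn at Year 1 from -0.14 to 0.13. In control rats over time Igf2r ranged from -0.0978 to 0.0346, Grb10 from -0.0723 to 0.0326, and Cdkn1c from -0.36 to 0.14. In treated rats over time Igf2 ranged from -0.0889 to 0.115 and Mest from -0.63 to 0.58, and for the interaction Peg3 ranged from -0.134 to 0.0746 and Cdkn1c from -0.470 to 0.0206.

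Same-numbered rats of a year were separate animals, and their deviations correlated at 0.0069 on average (-0.147 to 0.107 over 9 pairs). With the replicate number as a block the counts were 2, 3, 4, 1, 2, and 0, as without it. Mest had no value with at least 10 counts in every rat. For genes of the pathway lists, whether a gene was called stayed the same in 479 cases under other settings, and 33 calls were lost. With a rat left out these numbers were 380 and 28. The unchanged cases include Lpl and Igfbp4 at Years 0.5 and 1, where neither gene was called. On the limma scale, Cebpa (0.99), Pparg (0.87), Igfbp4 (0.83), and Pappa2 (-0.97) at Year 2 and Uhrf1 at Years 0.5 (0.98) and 1 (0.75) fell under the fold limit. Depth limited Mest, Rasgrf1, Sfmbt2, and Tet1, whose levels were near or below 1 TPM.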
